A study of Rattus norvegicus with 14 samples.

Results

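Keratins are the intermediate filament proteins of epithelial cells, and keratin-associated proteins are the small, cysteine-rich or glycine- and tyrosine-rich proteins that bind hair keratins to each other in the hair shaft. Both families were followed in colonocytes, which are the lining cells of the large bowel, taken from rats on either a normal-protein diet, abbreviated NPD, or one high in protein, abbreviated HPD. Members were all probes of the array, controls left out, whose gene name in the scanner files was Krt with a number or began with Krtap. This gave 58 genes with 64 probes, 44 of them keratin genes and 14 keratin-associated protein genes, among 26276 gene names and 30367 probes.

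The rats were male Wistar rats, 5 to 6 weeks old on arrival, and had 1 week of a standard diet before the experiment. The NPD provided 14% of energy as protein and the HPD 55%, as whole milk protein in place of starch and sucrose at equal energy, and each was eaten freely for 15 days. No genetic change was made in either group. Colonocytes were released from the flushed colon with EDTA. RNA from each rat, carrying the dye Cy3, went onto an Agilent array of its own. The authors removed an array of each diet as an outlier in a principal component analysis, which left 7 NPD and 7 HPD arrays. The question was how the colonic epithelium responds to a diet rich in protein.

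A keratin filament is built from pairs of a type I and a type II chain. Simple epithelia such as that of the colon make the type II keratins Krt8 and Krt7 and the type I keratins Krt18, Krt19, Krt20 and Krt23, and these filaments anchor to desmosomes and help the cell bear mechanical stress. Stratified epithelia such as epidermis and oesophagus use Krt5 with Krt14, Krt1 with Krt10 or Krt4 with Krt13. The inner root sheath of the hair follicle uses Krt25 to Krt28 with type II keratins such as Krt72 and Krt73, and the companion layer uses Krt75. The hair shaft uses hair keratins such as Krt31 to Krt36 and Krt81 to Krt86 together with keratin-associated proteins. In rat, the type I genes lie on chromosome 10, apart from Krt18, which lies with the type II genes on chromosome 7. The keratin-associated protein genes among the members lie on chromosomes 10 and 11. The mapped probes of these members lay on the same chromosomes on the rn4 build of the files, and the Krt18 probe had no position. Of the keratin probes, 26 were on chromosome 10, 15 on chromosome 7 and 3 had no position, and of the keratin-associated protein probes 6 were on chromosome 10 and 8 on chromosome 11.

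The array sees each gene through a probe of 60 bases, and the probes of the keratin-associated protein genes are printed here, as the files give them, because most of the diet differences described below were measured on them. Capitals mark the letters TGC or TGT, which spell cysteine when they fall in frame, wherever they occur on the printed strand. The files do not give the reading frame of a probe, so these are counts of letters and not of codons.
Krtap13-2, chr11:28613077-28613136, plus strand: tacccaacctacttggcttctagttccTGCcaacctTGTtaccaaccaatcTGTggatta
Krtap14l, chr11:28608998-28609057, minus strand: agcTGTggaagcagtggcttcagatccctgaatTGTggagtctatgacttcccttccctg
Krtap31-1, chr10:88861222-88861281, plus strand: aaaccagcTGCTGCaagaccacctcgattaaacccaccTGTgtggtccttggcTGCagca
Krtap9-5, chr10:88878192-88878251, plus strand: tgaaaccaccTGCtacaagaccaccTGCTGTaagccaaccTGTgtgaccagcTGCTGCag
Krtap1-5, chr10:88536393-88536452, minus strand: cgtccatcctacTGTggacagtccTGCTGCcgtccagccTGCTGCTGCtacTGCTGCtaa
Krtap1-3, chr10:88545976-88546035, minus strand: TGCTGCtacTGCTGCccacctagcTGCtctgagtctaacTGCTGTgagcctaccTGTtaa
Krtap19-3, chr11:28788399-28788458, minus strand: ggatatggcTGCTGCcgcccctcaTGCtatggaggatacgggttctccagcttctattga
Krtap16-5, chr11:28775028-28775087, minus strand: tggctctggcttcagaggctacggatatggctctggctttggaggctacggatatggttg
Krtap21-2, chr11:29181945-29182004, minus strand: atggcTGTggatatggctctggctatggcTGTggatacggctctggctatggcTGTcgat
The probes of Krtap1-3 and Krtap1-5 hold TGC or TGT 8 times each. The letters GGNTAC or GGNTAT, a glycine codon and a tyrosine codon where in frame, occur 4 times each in the probes of Krtap16-5 and Krtap21-2, and 6.8% of all probes hold them at least once on this strand.

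The keratin probes below are shown for contrast, as these genes gave the keratin values discussed most.
Krt8, spliced across chr7:140716967-140717949, minus strand: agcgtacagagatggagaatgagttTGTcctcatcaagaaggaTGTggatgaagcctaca
Krt19, chr10:89081437-89081496, minus strand: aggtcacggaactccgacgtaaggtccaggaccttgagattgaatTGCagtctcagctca
Krt20, chr10:88336090-88336149, minus strand: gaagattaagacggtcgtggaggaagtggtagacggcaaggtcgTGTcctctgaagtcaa
Krt7, no position in the files: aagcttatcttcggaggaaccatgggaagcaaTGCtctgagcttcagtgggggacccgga
Over the brightest probe of each gene, TGC or TGT occurred a median of 3.0 times in the keratin-associated protein genes (range 0 to 8), 1.0 time in the keratins (range 0 to 5) and 2.0 times over all probes, of which 85.5% held it. The median GC content was 54.15% in the keratin-associated protein genes, 48.3% in the keratins and 45.0% over all probes.

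Probes of families with repeats can bind each other's targets, so the probes of different member genes were compared with each other. Over 2008 pairs, the longest run of identical bases was 16, found between Krt25 and Krt27 and between Krtap16-5 and Krtap21-2, and 7 pairs shared 12 bases or more. No pair shared 20 bases. Outside the members, the Krt18 probe shared 24 bases with a probe named LOC683212, whose difference between the diets was 0.11 on the log2 scale, beside 0.14 for Krt18. The Krtap3-1 and Krtap21-2 probes shared 25 and 21 bases with a probe without a gene name each, and whether these 3 members' values hold signal of a near copy was not tested.

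Most keratin genes were not above background, while most keratin-associated protein genes were. A gene was taken as above background where its brightest probe was marked well above background by the scanner software in all 7 rats of the NPD group, of the HPD group, or of both. This held for 16 of the 44 keratins and 10 of the 14 keratin-associated protein genes, beside 59.7% of all gene names and 59.1% of all probes. All 6 simple epithelial keratins were above background, on all 14 arrays each. Of the keratins of stratified epithelia, 4 of 17 were above background, Krt4, Krt14, Krt15 and Krt80, and 10 were not well above background on any array, among them Krt1, Krt10, Krt13, Krt16 and Krt17. Of the inner root sheath keratins, with Krt75 of the companion layer counted among them, 2 of 7 passed, Krt25 and Krt75. Of the hair keratins 4 of 13 passed, Krt1-5, Krt33a, Krt33b and Krt83. Krt1-5 and Krt83 are older names of genes that RefSeq now calls Krt36 and Krt87. In all, 26 members were not well above background on any array and 6 only on some arrays.

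**Figure D1:**
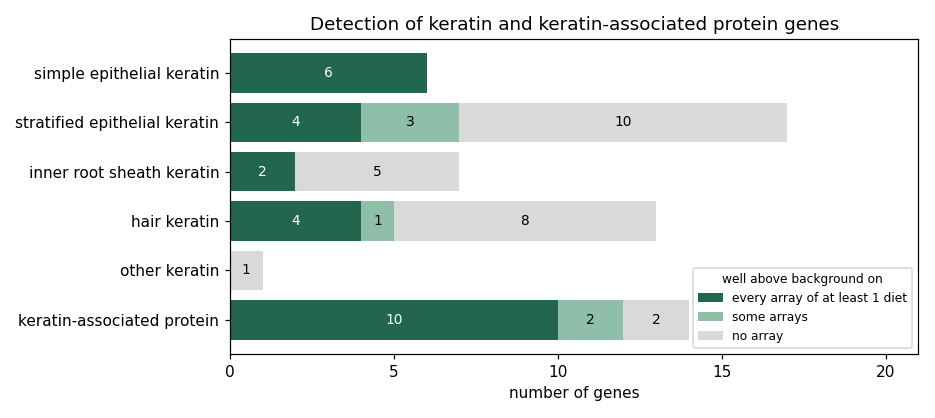
Number of genes (x axis) in each class of keratin and in the keratin-associated proteins, split by whether the brightest probe was well above background in all rats of 1 or both diets (dark), on some arrays (light) or on no array (grey). All 6 simple epithelial keratins were above background, against 4 of 17 stratified epithelial keratins and 10 of 14 keratin-associated protein genes.

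Other cell types were checked with short lists of marker genes. All 13 colonocyte markers were above background. Of 7 squamous epithelium markers on the array 3 were above background, Col17a1, Lypd3 and Ly6d. The others, Dsg3, Dsc3, Calml3 and Lgals7, were not well above background on any array. Of 11 hair follicle genes 6 were above background, Dlx3, Lef1, Tchh, Padi3, Tgm3 and S100a3. Foxn1 and Hoxc13 were well above background on some arrays, and Msx2, Gata3 and Lhx2 on none. These genes are named after their values were seen. The summed signal of the hair follicle genes ranged from 2872 to 8860 on the NPD arrays and from 1099 to 6577 on the HPD arrays, and that of the squamous markers from 3971 to 6403 and from 3235 to 6397. The summed signal of 8 immune cell markers was 1979 to 5013 on the NPD arrays and 1315 to 1951 on the HPD arrays. That of 9 stromal and muscle markers was 936 to 2300 and 558 to 1434. All these sums were taken before any adjustment for the overall signal of an array, which was lower with the HPD, as given below. They also rest mostly on the brightest genes of a list. The mean log2 NPD signal over the array median was 5.48 for Tgm3 and 2.38 for Dlx3, the next hair follicle gene. For the squamous markers it was 5.86 for Lypd3 and 0.26 for Col17a1, and for the immune markers 4.11 for Lyz2 and 2.47 for Itgam. Relative to the array median, 1 immune marker was higher and 1 lower on the HPD at an unadjusted limma p under 0.05. Of the stromal and muscle markers 2 were higher and 1 lower. The part of these cells in the differences below was not tested.

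The arrays themselves also differed with diet. The median signal per array averaged 84.4 ± 11.2 (SD, n = 7) with the NPD and 66.0 ± 7.11 (SD, n = 7) with the HPD, and an exact two-sided permutation test gave p = 0.00524. Because the study centred its data by array, values were set relative to each array's median, on the log2 scale. For the named members above background the difference without centring is given where its direction was the opposite. Correlations between arrays ranged from 0.969 to 0.992. The 2 slides were unequal in diet, as slide 1 carried 4 NPD and 3 HPD arrays while slide 2 carried 3 and 4. Each slide was scanned on a date of its own, so slide and scan date cannot be told apart in any slide difference given here. In a fit of both terms, slide was past an adjusted p of 0.1 for 15 of the 58 members, beside 40.1% of all probes and 53.9% of probes above background.

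With limma over all probes, 2 of the 14 keratin-associated protein genes and 0 of the 44 keratins differed between the diets at a Benjamini-Hochberg adjusted p below 0.1. Over all gene names the same test called 14 of 26276, or 0.0533%, and over all probes 17, or 0.056%, each of them higher on the HPD. The called members were Krtap13-2 and Krtap14l, both higher on the HPD. With replicate number as a block neither gene was called (limma adjusted p = 0.173 and 0.178). Among the keratins, 5 were higher and 4 lower at an unadjusted p under 0.05, beside 5.86% higher and 5.55% lower of all probes, and 4 of the 5 higher ones were not well above background on any array. With normexp background correction 9 keratins were called higher and 2 lower, beside 10.8% higher and 6.15% lower of all probes. Except for Krt25, the keratins called higher in that fit were not well above background on any array. Without centring, when every value also carries the lower overall signal of the HPD arrays, the test called 36 probes (0.119%) higher and 4914 (16.2%) lower, among them 6 keratins, all lower, and the same 2 keratin-associated protein genes, both higher. Without HPD replicate 1, which lay apart from the other HPD rats in 4 of the named members, 151 probes were called, 0.214% of all probes higher and 0.283% lower, and Krtap31-1 joined the 2 called members.

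Krtap13-2, a keratin-associated protein of the hair shaft, had the largest diet difference of the members above background. Relative to the array median, its log2 signal was lowest at 0.49, had a median of 1.16 and was highest at 1.35 on the NPD arrays, and the same values were 1.80, 2.38 and 2.96 on the HPD arrays. Every HPD rat lay above every NPD rat. The difference was 1.36 ± 0.21 (SE, n = 7 and 7) on the log2 scale, with a limma adjusted p of 0.0359. In the scanner signal, before centring, the NPD arrays ranged from 123 to 216 and the HPD arrays from 238 to 468, again without overlap. Such a separation of the diets, in the higher direction, was found for 0.129% of all probes. The difference was 1.25 within slide 1 and 1.39 within slide 2. A second Krtap13-2 probe further along the gene also gave higher values on the HPD, with a difference of 0.72 ± 0.26 (SE), but its groups overlapped and its adjusted p was 0.417.

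Krtap14l, the neighbouring gene, was the other call. Its centred log2 signal ran from 1.62 through a median of 2.07 to 2.20 on the NPD arrays, and from 2.32 through 2.95 to 3.48 on the HPD arrays. The groups did not overlap. The difference was 0.94 ± 0.16 (SE, n = 7 and 7), with a limma adjusted p of 0.0734, and was 0.89 within slide 1 and 0.95 within slide 2. The scanner signal was 262 to 390 on the NPD arrays and 342 to 623 on the HPD arrays, and without centring the difference was 0.59. Leaving out a single array ended the Krtap14l call in 12 of 14 fits, the exceptions being those without HPD replicate 1 or 6, while its difference stayed between 0.84 and 1.03 in these fits. Krtap13-2 lost its call without HPD replicate 4 (adjusted p = 0.109) or HPD replicate 5 (adjusted p = 0.103).

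In the deposited table of normalized values per gene name, the difference was smaller for Krtap13-2, at 0.73 with an adjusted p of 0.0511, and was 0.73 for Krtap14l with an adjusted p of 0.0681. The number of expressing cells and the RNA per cell cannot be told apart in bulk RNA of this kind, for these genes and for those that follow.

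The called genes lie side by side on chromosome 11, on opposite strands. Their probes are 4019 bases apart on rn4, and the gene spans of RefSeq on GRCr8 are 3164 bases apart. Both were called higher on the HPD, and they also varied together among rats of one diet. Within the NPD group Pearson's r was 0.940 (exact permutation p = 0.00675) and Spearman's rho 0.857 (exact p = 0.0238), and within the HPD group r was 0.949 (exact p = 0.000595) and rho 0.964 (exact p = 0.00278). The Benjamini-Hochberg adjusted p values over the 8 relations computed for pairs of member probes were 0.00926 and 0.00159 for r and 0.0381 and 0.00741 for rho. Without the 2 rats farthest from the median of Krtap13-2, r was 0.972 and 0.945. Within the slides, over both diets, r was 0.988 and 0.983. The longest run of bases shared by the 2 probes was 7. For the 2 probes of Krtap13-2, r was 0.570 (exact permutation p = 0.185) in the NPD group and 0.368 (exact p = 0.392) in the HPD group, and rho was 0.714 (exact p = 0.0881) and 0.393 (exact p = 0.396). After adjustment over the 8 relations, p was 0.211 and 0.392 for r and 0.101 and 0.396 for rho, and without the 2 farthest rats r was 0.232 and 0.411. Within the slides, over both diets, r was 0.765 and 0.588.

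The sequences before the starts of both genes are shown because these neighbours moved together. They are the 250 bases before the gene start in RefSeq on GRCr8, read along the strand of each gene, with TATAAA, the core of a TATA box, in capitals.
Krtap13-2, chr11:41575647-41575896, plus strand: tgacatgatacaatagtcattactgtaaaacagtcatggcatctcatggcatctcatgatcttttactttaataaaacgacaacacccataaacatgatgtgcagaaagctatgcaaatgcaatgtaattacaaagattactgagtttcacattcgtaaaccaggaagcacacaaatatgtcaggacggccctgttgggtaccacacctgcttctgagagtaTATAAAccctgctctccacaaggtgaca
Krtap14l, chr11:41572733-41572982, minus strand: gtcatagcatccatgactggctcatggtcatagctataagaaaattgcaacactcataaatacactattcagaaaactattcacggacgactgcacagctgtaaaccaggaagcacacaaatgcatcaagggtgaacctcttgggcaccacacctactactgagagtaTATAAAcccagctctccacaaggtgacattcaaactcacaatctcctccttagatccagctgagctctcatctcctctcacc
The windows share 3 runs of 12 bases or more in the same order, GTAAACCAGGAAGCACACAAAT with 22 bases, CTGAGAGTATATAAACCC with 18 and GCTCTCCACAAGGTGACA with 18. TATAAA begins 28 bases before the annotated start of Krtap13-2 and 82 bases before that of Krtap14l. Of 33469 such windows in RefSeq, 12.9% hold TATAAA on either strand, and of the 45 members with a window 28 do. A further 2 motifs were searched on both strands, CCAAT, found in 34.0% of all windows and in 18 members, and TTTATGG, found in 2.7% and in 8. CCAAT was in neither printed window. TTTATGG was in that of Krtap13-2 on the opposite strand.

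**Figure D2:**
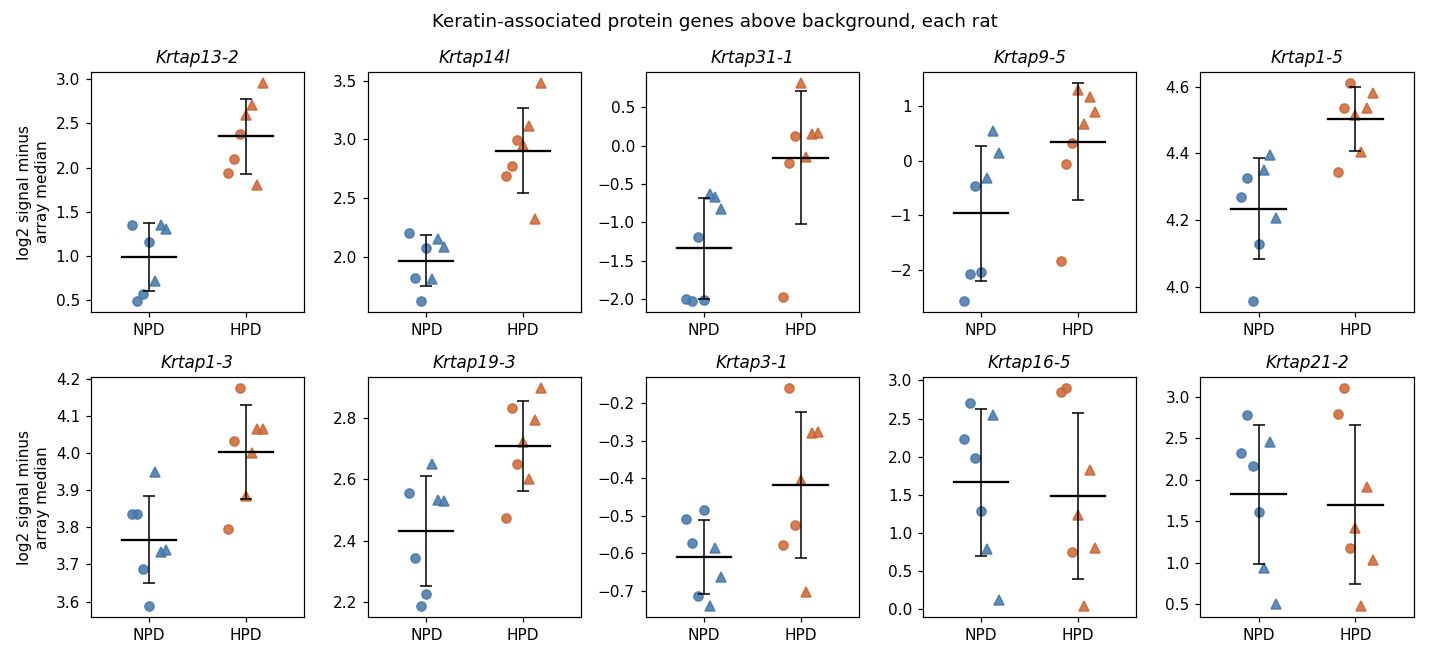
Log2 signal minus the array median (y axis, a scale of its own in each panel) of the 10 keratin-associated protein genes above background in each NPD rat (blue) and HPD rat (orange), with circles for slide 1 and triangles for slide 2; lines and bars are the mean and SD of 7 rats. The groups separate for Krtap13-2 and Krtap14l and overlap in the other 8 panels.

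Of the 10 keratin-associated protein genes above background, 7 were higher on the HPD at an unadjusted p under 0.05 and 0 lower, beside 5.19% higher and 8.5% lower of all probes above background. Krtap9-5, which is among the 7, passed as above background through the HPD arrays alone, the diet in which it was higher. The median difference over all 14 genes was 0.26 and over these 10 it was 0.27, against 0.05 over all probes above background, and without centring the median over the 14 genes was -0.09. Krtap31-1 and Krtap9-5, both of the chromosome 10 cluster, had differences about as large as that of Krtap13-2 but a wide spread. Krtap31-1 ran from -2.03 through -1.19 to -0.62 on the NPD arrays and from -1.97 through 0.13 to 0.82 on the HPD arrays. The groups overlapped through HPD replicate 1 alone, whose value of -1.97 lay among the lowest NPD values. The difference was 1.18 ± 0.38 (SE, adjusted p = 0.417), and without HPD replicate 1 it was 1.48 with an adjusted p of 0.0941. A second Krtap31-1 probe was not well above background on any array.

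Krtap9-5 ran from -2.56 through -0.47 to 0.54 on the NPD arrays, where 6 of 7 arrays were well above background, and from -1.84 through 0.66 to 1.29 on the HPD arrays. The spread within each diet followed the slides. The slide difference was 1.71 (adjusted p = 0.0038), the diet difference 1.31 ± 0.56 (SE, adjusted p = 0.422), and within the slides the diet difference was 1.26 and 0.87. Krtap31-1 had a slide difference of 1.02 (adjusted p = 0.0153). The signals of these genes tracked each other within each diet, with r of 0.955 (exact permutation p = 0.00694) in the NPD group and 0.955 (exact p = 0.00357) in the HPD group, and rho of 0.786 (exact p = 0.048) and 0.929 (exact p = 0.00675). After adjustment over the 8 relations, p was 0.00926 and 0.00714 for r and 0.064 and 0.0135 for rho. Without the 2 rats farthest from the median of Krtap31-1, r was 0.937 in the NPD group and 0.664 in the HPD group. The exact p values do not allow for slide, because the permutations exchanged rats across slides. Within slide 1 and slide 2, over both diets, r was 0.953 and 0.849. Their probes share a run of 13 bases.

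A further set had small, even differences. Krtap1-5 and Krtap1-3, high-sulphur proteins whose probes are shown above, had differences of 0.27 ± 0.10 and 0.24 ± 0.10 (SE), and Krtap19-3, a glycine- and tyrosine-rich member, one of 0.28 ± 0.11. For Krtap1-5 the centred signal ran from 3.96 through 4.27 to 4.40 on the NPD arrays and from 4.34 through 4.54 to 4.61 on the HPD arrays. All 7 HPD rats lay above the NPD mean for each of these 3 genes, yet the groups overlapped and the adjusted p values were 0.417, 0.418 and 0.417. The scanner signal before centring did not show the same direction. The median signal of Krtap1-5 was 1557 on the NPD arrays and 1522 on the HPD arrays, that of Krtap1-3 was 1154 and 1056, and that of Krtap19-3 was 457 and 436. Without centring the differences of these 3 genes were -0.079, -0.11 and -0.073. For Krtap3-1 the difference was 0.19 ± 0.11 (SE, adjusted p = 0.473), and -0.16 without centring.

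Krtap16-5 and Krtap21-2, the glycine- and tyrosine-rich pair, varied widely within both diets and had no common direction with the rest. Krtap16-5 ran from 0.12 through 1.98 to 2.71 on the NPD arrays and from 0.04 through 1.24 to 2.90 on the HPD arrays. The difference was -0.18 (95% interval -1.24 to 0.88, adjusted p = 0.861). For Krtap21-2 it was -0.12 (95% interval -1.06 to 0.81, adjusted p = 0.896). The slide difference was -1.04 for Krtap16-5 (limma adjusted p = 0.0892) and -1.04 for Krtap21-2 (adjusted p = 0.0448). The values of the 2 genes were nearly interchangeable from rat to rat, with r of 0.993 in the NPD group (exact permutation p = 0.000198) and 0.994 in the HPD group (exact p = 0.000397), rho of 1 (exact p = 0.000397) and 0.964 (exact p = 0.00278), and adjusted p values of 0.00159 for both r and of 0.00317 and 0.00741 for rho. Without the 2 rats farthest from the median r was 0.985 and 0.990, and within the slides, over both diets, 0.992 and 0.998. Their probes share a run of 16 bases, so a common target cannot be told apart from 2 genes that vary together. Of 3 Krtap16-5 probes, another above background gave -0.21 and the remaining probe was not well above background on any array.

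**Figure D3:**
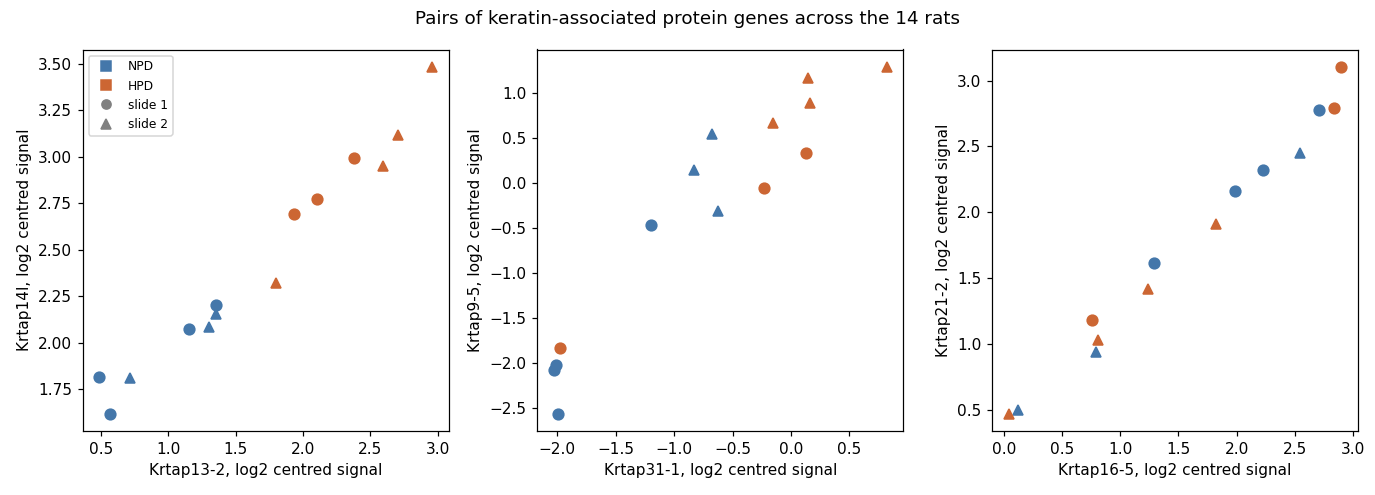
Log2 centred signal of 3 pairs of keratin-associated protein genes in the 14 rats, 1 gene on each axis, NPD in blue and HPD in orange, circles for slide 1 and triangles for slide 2. Krtap13-2 and Krtap14l separate the diets along a line, Krtap31-1 and Krtap9-5 also follow the slide, and Krtap16-5 and Krtap21-2 follow each other without separating the diets.

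The 4 keratin-associated protein genes that did not pass as above background were Krtap14, Krtap15-1, Krtap4-3 and Krtap7-1. Krtap14, which shares a name with the called Krtap14l but has a probe of its own on chromosome 11, was not well above background on any array, and neither was Krtap15-1. Krtap4-3 was well above background on 5 NPD and 6 HPD arrays and Krtap7-1 on 3 and 4. The difference of Krtap4-3 was 0.13, and -0.22 without centring. Their adjusted p values ran from 0.478 to 0.79.

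Among the keratins of the colon's own epithelium, no gene changed at the threshold, and the values leaned lower on the HPD for Krt19, Krt7 and Krt8. The median difference of the 6 simple epithelial keratins was -0.17, with 4 lower and 2 higher, and that of all 16 keratins above background was -0.07, with 7 higher and 9 lower. Among the 9 lower ones, Krt1-5 and Krt33a passed as above background through the NPD arrays alone. Over all probes above background the median was 0.05 and 56.8% were above 0.

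Krt19, a type I keratin without the usual tail that pairs with Krt8, ran from 10.43 through 10.73 to 10.88 on the NPD arrays and from 9.98 through 10.28 to 10.77 on the HPD arrays. In 6 of 7 HPD rats it lay below the NPD mean, and the groups overlapped. The difference was -0.36 ± 0.14 (SE, unadjusted p = 0.0185, limma adjusted p = 0.417). In the scanner signal the median was 141078 on the NPD arrays and 83090 on the HPD arrays, and without centring the difference was -0.71, which passed the threshold.

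Krt7, a type II keratin of ductal and some intestinal cells, ran from 4.38 through 4.88 to 5.11 on the NPD arrays and from 4.13 through 4.48 to 4.93 on the HPD arrays. Again 1 HPD rat lay above the NPD mean and 6 below. The difference was -0.39 ± 0.15 (SE, unadjusted p = 0.019, adjusted p = 0.417), with -0.51 within slide 1 and -0.32 within slide 2. Krt8, the main type II partner in the colon, ran from 8.97 through 9.21 to 9.48 on the NPD arrays and from 8.80 through 9.03 to 9.47 on the HPD arrays. Its difference was -0.18 (95% interval -0.44 to 0.08, adjusted p = 0.515). The HPD rats lay below the NPD mean in 6 of 7 cases, and HPD replicate 1 was the exception at 9.47.

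Krt18, the type I partner of Krt8, ran from 9.64 through 10.39 to 10.80 on the NPD arrays and from 9.99 through 10.31 to 10.86 on the HPD arrays, so the groups covered the same range. The difference was 0.14 (95% interval -0.27 to 0.56, adjusted p = 0.718), and the slide difference of 0.50 (adjusted p = 0.0219) was larger. Krt20, a keratin of differentiated cells at the intestinal surface, had a difference of 0.15 (95% interval -0.19 to 0.49, adjusted p = 0.640). Without centring the differences of Krt18 and Krt20 were -0.21 and -0.20. Krt23 varied more, from -0.68 to 1.21 on the NPD arrays and from -1.41 to 0.90 on the HPD arrays, with a difference of -0.16 (95% interval -0.96 to 0.64, adjusted p = 0.838). The direction of Krt18 and Krt20 also turned with quantile or cyclic loess normalization, to -0.02 and -0.002 with the former and to -0.02 and -0.008 with the latter.

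**Figure D4:**
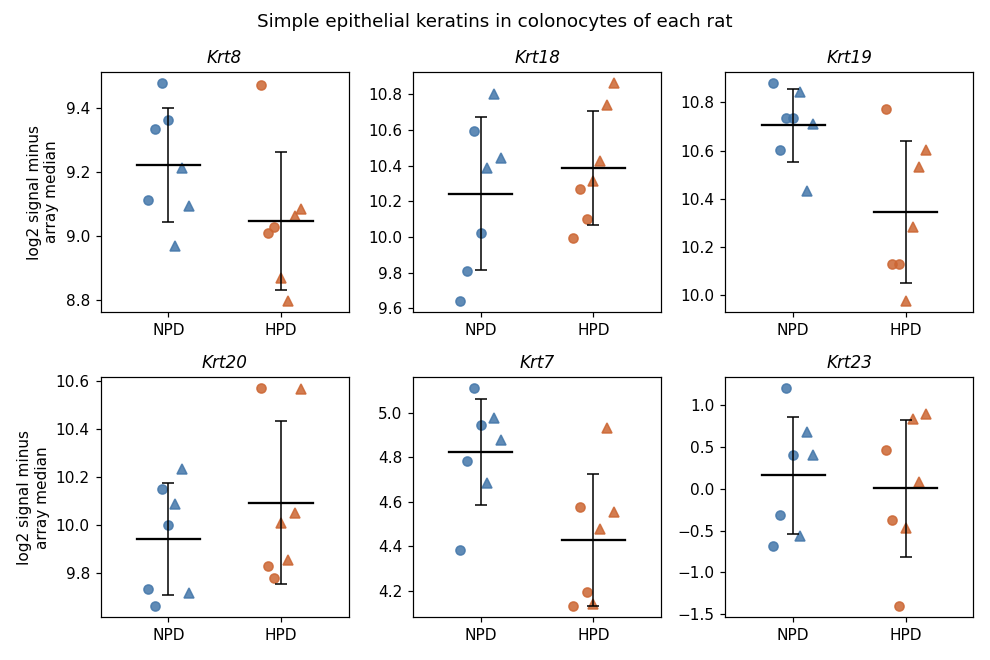
Log2 signal minus the array median (y axis, a scale of its own in each panel) of the 6 simple epithelial keratins in each NPD rat (blue) and HPD rat (orange), with circles for slide 1 and triangles for slide 2; lines and bars are the mean and SD of 7 rats. All 6 pairs of groups overlap, and the differences range from -0.39 for Krt7 to 0.15 for Krt20.

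The other keratins above background belong to stratified epithelia and hair, and none was called. Krt1-5, a hair and nail keratin, ran from -1.26 through -0.47 to 0.02 on the NPD arrays and from -2.18 through -1.13 to -0.90 on the HPD arrays. Each HPD value fell short of the NPD mean, with a difference of -0.66 ± 0.23 (SE, unadjusted p = 0.0114, adjusted p = 0.417). The probe was well above background on 7 NPD and 3 HPD arrays, and its scanner signal had medians of 61.3 and 29.2. Krt75, a keratin of the companion layer of the hair follicle, had a difference of -0.50 ± 0.19 (SE, unadjusted p = 0.0176, adjusted p = 0.417), and 1 HPD rat lay above the NPD mean.

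In the other direction, Krt25 of the inner root sheath ran from -0.44 through -0.23 to 0.03 on the NPD arrays and from -0.12 through 0.20 to 0.36 on the HPD arrays. All 7 HPD rats were above the NPD mean, and the difference was 0.38 ± 0.12 (SE, unadjusted p = 0.00572, adjusted p = 0.417). The scanner signal had medians of 71.8 and 71.5, and the difference without centring was 0.03. Krt14, the type I keratin of basal cells, had a difference of 0.23 ± 0.12 (SE, adjusted p = 0.459) and -0.12 without centring. Its partner Krt5 was well above background on 6 arrays of each diet and had a difference of 0.36 (adjusted p = 0.455).

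Krt4, a keratin of oesophageal and other inner linings, had medians of -0.97 on the NPD and 0.19 on the HPD arrays. The difference of 0.69 (95% interval -0.05 to 1.42, adjusted p = 0.448) stood beside a slide difference of 1.11 (adjusted p = 0.00181), and was 0.50 and 0.56 within the slides. Krt80, found in many epithelia, also followed the slide, with a slide difference of 1.11 (adjusted p = 0.017) and diet differences of -0.37 within slide 1 and 0.55 within slide 2. Over both slides its difference was 0.25, and -0.10 without centring. Krt15, a keratin of basal and hair follicle stem cells, had the widest spread of the keratins above background. It ran from -0.14 through 1.30 to 2.25 on the NPD arrays and from -0.31 through 0.71 to 3.82 on the HPD arrays. Its difference was -0.07 (95% interval -1.31 to 1.17, adjusted p = 0.958). The hair keratins Krt33b, Krt33a and Krt83 had differences of 0.27, -0.07 and -0.18 with adjusted p values of 0.515 to 0.847, and leaving out a single array or using the mean pixel signal turned the direction of Krt33a. Without centring the difference of Krt33b was -0.082.

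**Figure D5:**
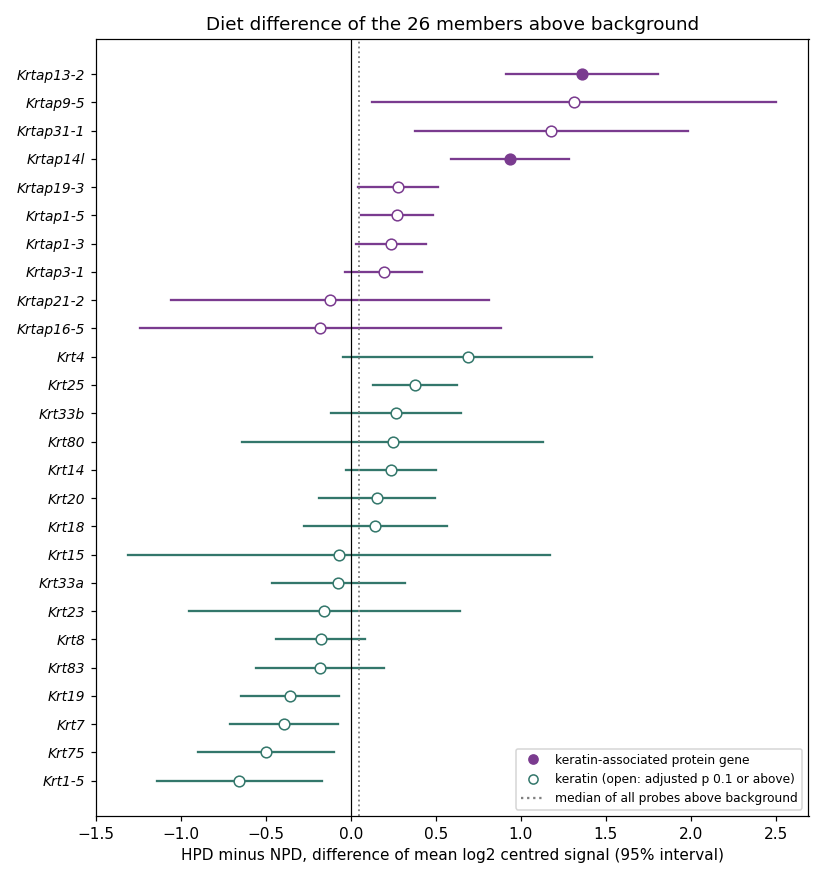
Difference HPD minus NPD in mean log2 centred signal (x axis) with its 95% interval for the 26 members above background, keratin-associated protein genes in purple and keratins in green, with filled points for an adjusted p below 0.1 and a dotted line at 0.05, the median of all probes above background. Krtap13-2 at 1.36 and Krtap14l at 0.94 are the filled points, and the keratins lie on both sides of 0.

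For the 24 keratins not well above background on any array, no fold is given. Of these, 21 had a difference above 0 after centring, beside 84.7% of all probes not well above background on any array, and 4 had an unadjusted p under 0.05 in that direction, beside 7.12% of such probes. The 4 were Krt84, Krt39, Krt73 and Krt16. Krt84, a hair and tongue keratin, had scanner signals of 4.32 to 13.2 on the NPD arrays and 5.58 to 38.7 on the HPD arrays. Of the 4 keratins well above background on some arrays, Krt5, Krt9, Krt78 and Krt85, none was called. The 3 probes of Krt78 disagreed, with differences of -0.27, -0.57 and 1.39.

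Genes that work with keratins were taken as lists, and no gene of any list was called. Of 15 desmosome and keratin linker genes on the array 11 were above background, the median difference was 0.04, and 0 were higher and 3 lower at an unadjusted p under 0.05. Of 17 other intermediate filament genes 10 were above background, the median was 0.11, and 0 passed that p in either direction. Of 13 cornified envelope genes, which build the outer shell of squamous cells, 4 were above background, the median was 0.34, and 8 were higher and 0 lower at that p. Among these 8, Sprr1b, Cnfn and Spink5 were above background, Spink5 through the HPD arrays alone. Flg, Rptn and Krtdap were well above background on some arrays, and Ivl and Casp14 on none. Of 11 hair follicle genes, 1 was higher and 1 lower, with a median of -0.01, and of 7 squamous markers 0 were higher and 2 lower, with a median of -0.11. For all probes the shares at that p were 5.86% higher and 5.55% lower, and the median was 0.11. For probes not well above background on any array the shares were 7.12% and 0.319%, and the median was 0.23.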

How the data were processed

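The authors deposited a scanner file for each of 14 one-colour arrays, read with Agilent Feature Extraction 10.7.3.1, with the intensity of every spot on a linear scale. The authors also deposited normalized log2 values per gene name for the series. The array of each diet that the authors removed as an outlier was not analysed here. Of 62976 spots per array 58717 were not controls. After removal of spots the scanner software marked as outliers, log2 of the background-subtracted signal was taken, spots of a probe were averaged, and each array was centred on its median over 30367 probes. Which signal column and which centring statistic the authors used is not given in the sources used here. The fit was limma's lmFit and eBayes (version 3.58.1, R 4.3.3) with diet as the factor, with Benjamini-Hochberg adjustment over all probes and a threshold of 0.1, and files were read with the R package data.table (1.17.8). The probe with the highest mean log2 signal stood for a gene. Exact two-sided permutation tests of single measures used all 3432 splits of the arrays, with a smallest p of 0.000583. The number of arrays limits the precision, and no member probe was saturated.

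Diet and replicate number came from the labels, and each array was a rat of its own. Named genes were the called members, those above background, the simple epithelial keratins, and the 5 higher and 5 lower members with the smallest unadjusted p under 0.05. The members, the lists and the tests were chosen with earlier results of these data known. RefSeq names on GRCr8 were matched for 47 members by accession and 8 by symbol, and 3 had no match. The 3 were Krtap9-5, Krtap19-3 and Krtap21-2, all among the keratin-associated protein genes above background, and they are named here as the array names them. In 31 further fits the signal, the background correction (normexp, offset 50), the centring (75th percentile, mean, none), the normalization (quantile, cyclic loess), the probes, the variance trend, a block for slide or for replicate number, the deposited values, or the array left out was changed, and an adjusted p below 0.05 was tried. No centring, centring over spots, and slide as a block with cyclic loess or with the deposited values were chosen after seeing the data.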

Additional observations from a re-analysis of the deposited data

Results flagged for a closer look

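In 54 groups of 7 rats (the 27 named genes in each diet), the highest or lowest rat was compared with its neighbour, and 5 groups had a gap, as a share of the group's range, above Dixon's 95% critical value. Chance alone gives about 1 in 20 groups. HPD replicate 1 accounted for 4 of them. Its centred log2 signal of Krtap31-1 was -1.97 while the other HPD rats lay between -0.23 and 0.82, and its Krtap9-5 value was -1.84 while the others lay between -0.06 and 1.29. Its Krt1-5 value was -2.18, below the others at -1.37 to -0.90, and its Krt8 value was 9.47, above the others at 8.80 to 9.08. Without this rat the diet differences were 1.48 for Krtap31-1 (limma adjusted p = 0.0941), 1.68 for Krtap9-5 (0.127), -0.50 for Krt1-5 (0.193) and -0.25 for Krt8 (0.238). The remaining group was Krt14 on the NPD, where NPD replicate 4 was at -0.19 and the others lay between -0.70 and -0.50. Without that rat the difference of Krt14 was 0.29 (adjusted p = 0.573).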

How the results depend on the processing

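Krtap13-2 and Krtap14l stayed higher on the HPD in all 31 alternative fits, with differences of 0.72 to 1.45 and 0.59 to 1.03 and adjusted p values of 0.00837 to 0.173 and 0.017 to 0.214. Of the 17 fits that kept all arrays, Krtap13-2 was called in 15 and Krtap14l in 16. With the replicate number as a block neither was called (adjusted p = 0.173 and 0.178) and 8 probes and 0 keratin-associated protein genes passed over the whole table. The labels name no batch shared by rats of the same number. Deviations from the group means correlated at 0.14 to 0.39 in the 6 same-number pairs that shared a slide and at -0.09 in replicate 4, whose rats lay on different slides, and 1 of 7 NPD rats correlated best with its own number. With the mean of all probes of a gene, 11 gene names and 1 keratin-associated protein gene, Krtap14l, were called, and Krtap13-2 had 1.04 (adjusted p = 0.169). At an adjusted p below 0.05, 1 keratin-associated protein gene was called. The number of probes called was 27 with slide as a block, 40 with cyclic loess and slide, 5142 with normexp, 4950 without centring and, in gene names, 2767 for the deposited table with slide. In these fits the keratins called were 11 with normexp, 6 without centring and 7 for the deposited table with slide, and the keratin-associated protein genes were 4 with normexp and 4 for the deposited table with slide. With normexp, Krtap14 and all keratins called higher except Krt25 were not well above background on any array. The same held for Krt24, Krt39 and Krt84, which were called for the deposited table with slide. Without centring, the median difference was -0.42 for the keratins above background and -0.094 for the keratin-associated protein genes, and that of all probes was -0.24, against 0.11 after centring and 0.00067 with cyclic loess.

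Leaving out a single array gave 9 to 151 probes, the highest without HPD replicate 1, with 0 keratins in each fit and 0 to 3 keratin-associated protein genes, and medians of -0.13 to 0.06 for the keratins above background and 0.23 to 0.30 for the keratin-associated protein genes. Directions turned, in genes never called by the reported test, as follows. Without centring the difference was -0.12 for Krt14, -0.21 for Krt18, -0.20 for Krt20, -0.082 for Krt33b, -0.10 for Krt80, -0.11 for Krtap1-3, -0.079 for Krtap1-5, -0.073 for Krtap19-3 and -0.16 for Krtap3-1. Krt18 was -0.0049 with normexp, -0.016 with quantile normalization, -0.024 with cyclic loess, -0.020 with cyclic loess and slide, -0.0031 for the deposited table and -0.048 for that table with slide. Krt20 was -0.0024 with quantile normalization, -0.0081 with cyclic loess and -0.00067 for the deposited table. Krt33a was 0.068 with the mean and 0.071 with the median pixel signal, 0.062 with normexp, and 0.030 and 0.041 for the deposited table without and with slide. Krt80 was -0.029 for that table with slide, and Krtap21-2 was 0.026 with slide as a block and 0.058 with cyclic loess and slide. Leaving out each array in turn gave -0.52 to 0.17 for Krt15, -0.31 to 0.077 for Krt23, -0.20 to 0.014 for Krt33a, -0.44 to 0.060 for Krtap16-5 and -0.36 to 0.083 for Krtap21-2. The cause was not tested. Genes at background on all arrays have no measured change at this signal.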
